A study of Mus musculus with 14 samples.

Results

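The respiratory chain genes of the nuclear genome were measured by poly-A selected RNA sequencing in the superior colliculus, where retinal axons reach the midbrain and end in the superficial layer. Members were chosen by name: protein-coding genes outside the mitochondrial genome whose symbols begin with Nduf and a subunit letter and number, with Sdh and a letter from a to d, with Uqcr, with Cox4 to Cox8 or with Atp5, without the assembly factors called Ndufaf. The pattern matched 97 of 55359 gene IDs, of which 12 were not protein-coding, and 85 members were left. They comprised 35 genes of complex I, 4 of complex II, 8 of complex III, 20 of complex IV and 18 of complex V. Ndufa4 and Ndufa4l2 were counted with complex IV, where the Ndufa4 protein is known to reside. Of the 85, 82 passed the filter on low counts and were tested. Cox8b, Cox8c and an additional gene ID of Atp5o, which was at 0 in each of the 14 libraries, did not.

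All 14 libraries came from ICR/CD-1 mice at postnatal day 6, and each held the tissue of 3 brains. The groups were superficial and deep layers after saline (3 libraries each) and after 50 mM carbenoxolone (cbx, a blocker of gap junctions; 4 libraries each), injected into the vitreous in 0.3 to 0.5 µL at postnatal day 0 to 1 to remove retinal waves. Pooling brains hides the spread between pups, so the spread behind the p-values is the one among pools, and nothing in the labels says whether it is also technical. The drug was placed in the eye, while the RNA was read in its target tissue, and the layers were dissected as bulk tissue with all their cell types. Library totals ranged from 32004952 to 48776827 counts, of which the members held 0.912% to 1.13% after scaling. All 10 dorsal midbrain and all 12 neuronal markers looked for were measured. Xist RNA was nearly absent in both libraries of saline pool 1 (0.572 and 1.94 CPM), and the Y-linked gene Ddx3y was at 0 in those of cbx pool 4. In the other pools Ddx3y ran from 30.5 to 45.3 CPM after saline and from 16.0 to 38.6 CPM after cbx. Xist ran there from 187 to 526 CPM and from 262 to 683 CPM. Leaving out both extreme pools thus does not make these marks equal between treatments, and their part was not tested.

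Complexes I to IV of the inner mitochondrial membrane pass electrons from NADH and succinate to oxygen, and complexes I, III and IV pump protons as they do so. Complex V, the ATP synthase, uses the proton gradient to make ATP. Complex II is encoded in the nucleus alone, while the other complexes join nuclear subunits to a few made from the mitochondrial genome. Developing neurons draw on this pathway for ion pumping, axon growth and synaptic transmission.

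The members were abundant in each of the 4 groups. Compared per kilobase of transcript, their median level over the 14 libraries was 106 CPM per kilobase, against 7.63 for the 15491 protein-coding genes tested. The complex medians were 72.1 for complex I, 73.6 for complex II, 160 for complex III, 137 for complex IV and 192 for complex V, in CPM per kilobase. Complex IV held both extremes: Cox6a1, a structural subunit, was highest at 671 (SD 62.2, n = 14), and Cox6a2, its heart and muscle isoform, was the lowest member tested at 0.487 (SD 0.202). Cox8a (578, SD 64.8) and Cox4i1 (569, SD 39.6), which followed Cox6a1, differed from each other by less than their spread.

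In complex V the catalytic beta subunit gene Atp5b was highest at 508 CPM per kilobase (SD 30.5) and Atp5s, a coupling factor gene outside the enzyme's core, lowest at 8.94 (SD 1.27). Uqcrq, a small subunit, led complex III at 337 (SD 34.3), and the core protein gene Uqcrc2 was lowest at 65.4 (SD 4.74). In complex II the iron-sulfur subunit gene Sdhb was highest at 90.02 (SD 5.70) and the membrane anchor gene Sdhc lowest at 36.7 (SD 3.48). Complex I ran from Ndufa1 at 158 (SD 15.4) to Ndufb4 at 32.1 (SD 2.67). Levels per kilobase of Uqcrq, Atp5g1 and Ndufb2 are uncertain, because their annotated main transcripts differ widely in length, from 405 to 1521 bases, from 596 to 4715 bases and from 455 to 4371 bases.

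**Figure D1:**
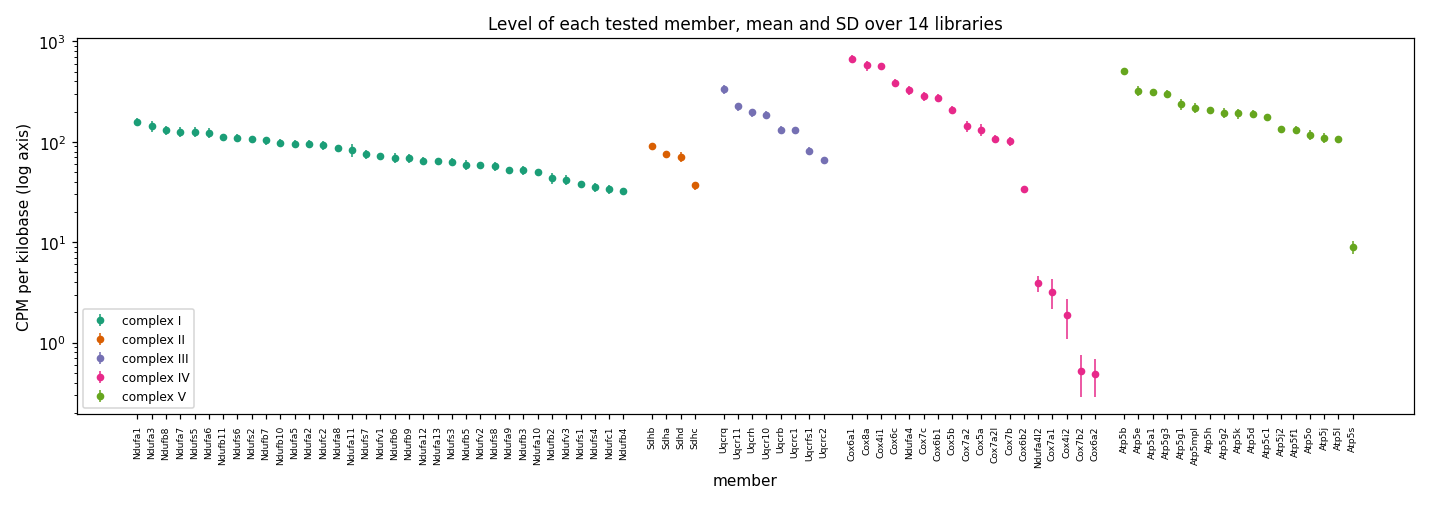
Level of each of the 82 tested members in CPM per kilobase on a log axis, as mean and SD over 14 libraries, grouped by complex and ordered within it. Members lie between 32.1 (Ndufb4) and 671 (Cox6a1) CPM per kilobase, apart from Atp5s and the isoforms Ndufa4l2, Cox7a1, Cox4i2, Cox7b2 and Cox6a2, which lie lower.

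The isoforms known from other tissues stayed at small shares of their pairs, taken in CPM per kilobase. Cox6b2 is the testis isoform of the subunit that joins complex IV dimers. It made up 10.6% (SD 0.314, n = 3) of the summed Cox6b1 and Cox6b2 level in saline deep libraries and 11.2% (SD 0.712, n = 3) in saline superficial ones. Cox7a1, the heart and muscle isoform, made up 1.95% (SD 0.489, n = 3) of its pair with Cox7a2 in saline superficial libraries and 2.89% (SD 1.22, n = 4) in cbx superficial ones. Ndufa4l2, a homologue of Ndufa4 known to be induced under low oxygen, made up 1.09% to 1.32% of its pair in the 4 group means. The lung-enriched Cox4i2 averaged at most 0.442% of its pair with Cox4i1, Cox7b2 at most 0.607% with Cox7b, Cox6a2 at most 0.0976% with Cox6a1 and Cox8b at most 0.0405% with Cox8a. At these levels the isoforms carried little weight in the sums by complex.

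Summed over all members, the 3 saline superficial libraries were at 9120.1, 9551 and 10554 CPM and the 4 cbx superficial libraries at 11310.0, 9861, 9707 and 9256 CPM. The saline deep libraries were at 9937, 9983 and 10811 CPM and the cbx deep libraries at 10812, 9244, 9203 and 10205 CPM. The ranges of the 4 groups overlapped in every comparison, and the group means differed by 2.99%, -3.69%, -4.90% and 1.70% for cbx against saline in the superficial layer, the same in the deep layer, superficial against deep after saline and the same after cbx. Complex IV differed in these 4 comparisons by 5.33%, -5.94%, -6.30% and 4.93%. The libraries of one group thus spread more widely than the group means lay apart. In bulk tissue, fewer cells of a type and less RNA per cell cannot be told apart.

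**Figure D2:**
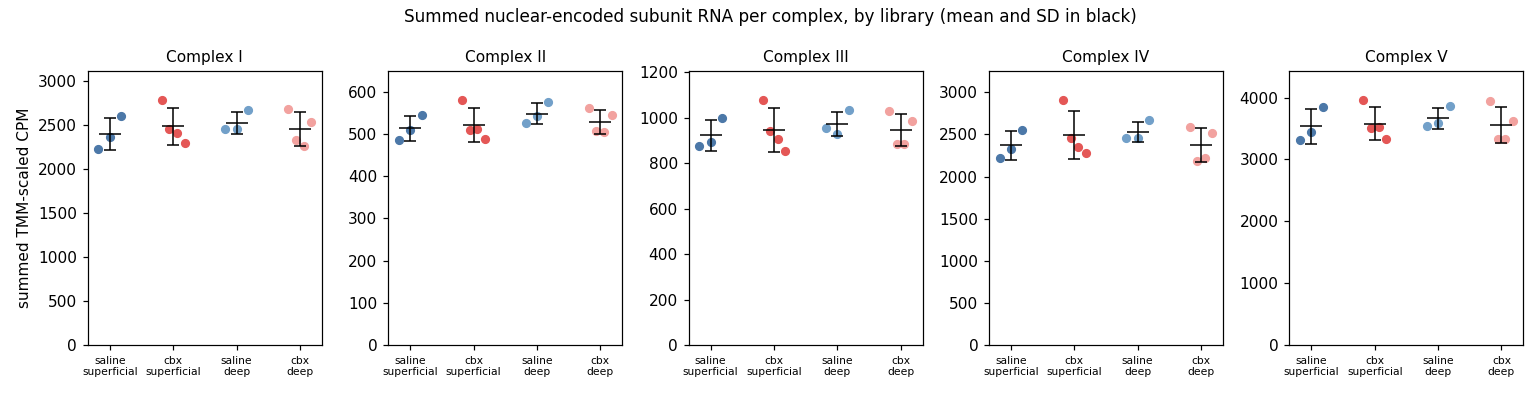
Summed TMM-scaled CPM of the members of complexes I to V in each library (points), with group mean and SD in black; each panel has its own axis from 0. The groups overlap in each complex, and cbx superficial replicate 1 is the highest of its group in all 5.

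The 5 complexes moved together from library to library. In cbx superficial replicate 1, 75 of 82 members were above their own 14-library mean, and the complex medians lay between 0.23 and 0.26 above it on the log2 scale. In the other cbx superficial libraries 38, 26 and 14 members were above their mean. In the saline libraries the counts were 8, 21 and 66 in the superficial and 38, 30 and 75 in the deep layer, and in the cbx deep libraries 74, 10, 5 and 57. Libraries with most members high and libraries with most members low occurred in both layers and after both treatments. Even in saline superficial replicate 2, where the complexes lay furthest apart, their medians ran from -0.11 to -0.04.

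The genes of the cytoplasmic ribosome followed these shifts in some libraries and not in others. Of 96 tested, 88, 85, 72 and 64 were above their mean in the 4 cbx superficial libraries, where 75, 38, 26 and 14 of the 82 members were. In the cbx deep libraries the counts were 37, 10, 11 and 33, so that cbx deep replicate 1 had most members high and most ribosomal genes low. In the saline libraries they were 22, 29 and 73 in the superficial and 39, 27 and 71 in the deep layer. The trend with transcript length and GC content was sizeable in 1 library, cbx superficial replicate 1, where it placed the members 0.12 above their mean, of a median deviation of 0.25. In the other libraries it lay between -0.05 and 0.04, with -0.01 in cbx deep replicate 1, whose members deviated by 0.12, and 0.01 in saline deep replicate 3, where they deviated by 0.11. Members are short transcripts, with a median length of 738.5 bases against 2850 for the protein-coding genes tested. What part length, GC content or the pools had in the shifts was not tested.

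**Figure D3:**
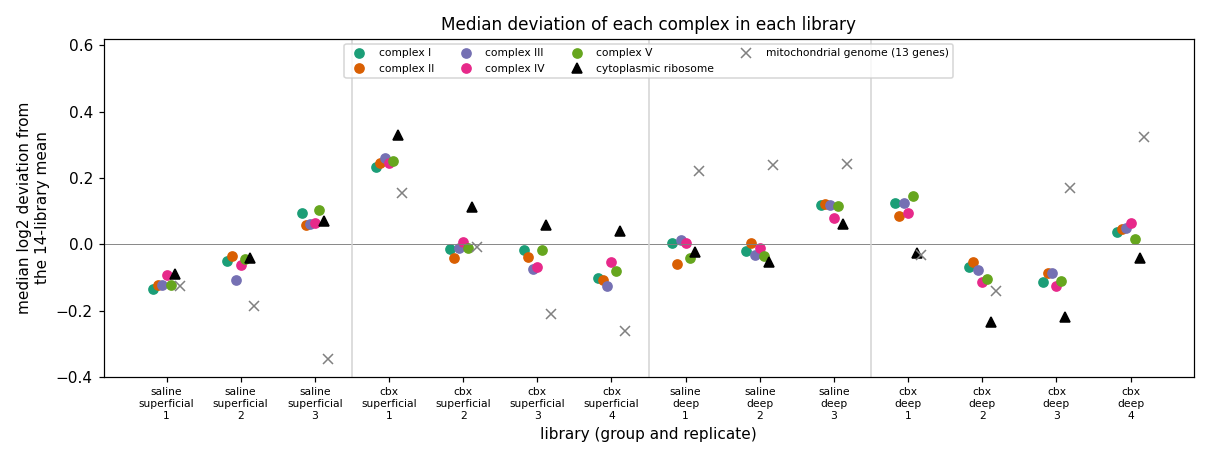
Median log2 deviation from the 14-library mean of each complex (circles), of 96 cytoplasmic ribosome genes (triangles) and of 13 genes of the mitochondrial genome (crosses), in each library. The 5 circles lie close together in each library, from -0.14 to -0.09 in saline superficial replicate 1 to 0.26 in cbx superficial replicate 1, while triangles and crosses often lie apart from them.

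In the superficial layer, where the retinal axons end, the comparison asked whether cbx in the eye left a mark on the chain. Retinal waves are not measured in these data. With edgeR's quasi-likelihood test 0 of 82 members passed the threshold of an adjusted p under 0.05, whereas 4.33% of all 20330 genes tested did (2.68% higher and 1.65% lower). At an unadjusted p under 0.05, 6 members were higher and 0 lower. Such counts, here and below, stand without a share of all genes and are not read as a result. DESeq2 called 1 member (Ndufa6), against 9.45% of the genes it tested, and limma-voom 0, against 4.33%. The median log2 difference of the members was 0.08, against 0.01 over all genes, and 66 of 82 had a positive difference. It was 0.07 in complex I, 0.04 in complex II, 0.09 in complexes III and IV and 0.08 in complex V. Without cbx superficial replicate 1 the median of all members was -0.00. With the members scaled to their own median in each library, 0 of 82 passed here and 0 in the deep layer, against 0.152% and 0.0197% of all genes.

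Ndufa6, an accessory subunit of complex I, came nearest to the threshold. It was at 59.0, 59.6 and 66.2 CPM in saline and 86.4, 77.1, 72.9 and 67.9 CPM in cbx superficial libraries, so that each cbx library was above each saline library. The log2 difference was 0.30 (SE 0.0860, edgeR adjusted p = 0.0502). It passed without cbx superficial replicate 4, without the low-count filter and with the trend in length and GC content removed. Atp5s was likewise higher without overlap, at 10.4, 11.04 and 11.6 CPM after saline and 13.5, 14.1, 12.3 and 12.7 CPM after cbx, a log2 difference of 0.25 (SE 0.0926, adjusted p = 0.122). Cox6c, an accessory subunit of complex IV, was at 189, 184 and 188 CPM and 234, 207, 209 and 195 CPM, a difference of 0.18 (SE 0.0757, adjusted p = 0.184).

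In all, 4 members were higher without overlap and 0 lower in this comparison, against 8.96% and 8.29% of all genes (17.3% in all). For complexes II and III the members with the smallest p were Sdhc, at 0.07 (SE 0.0929, adjusted p = 0.716), and Uqcrb, at 0.16 (SE 0.0881, adjusted p = 0.312). The 95% interval of the difference lay within 1.5-fold in either direction for 78 of the 82 members. The median SE of a member's difference was 0.09, as large as the members' median, so a change of that size was not detectable gene by gene.

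In the deep layer, which takes mostly input from other senses, cbx was set against saline in the same way. Again 0 of 82 members passed, against 1.83% of all genes (1.06% higher and 0.777% lower). At an unadjusted p under 0.05, 1 was higher and 1 lower. DESeq2 called 1 member (Atp5s), against 6.08% of the genes it tested, and limma-voom 0, against 1.57%. The median was -0.04 against 0.01 over all genes, 20 of 82 differences were positive, and the complexes ranged from -0.07 (complex IV) to -0.02 (complex III). Atp5s stood at 12.2, 13.02 and 12.6 CPM after saline and 14.5, 16.3, 14.8 and 16.9 CPM after cbx, which did not overlap, and its difference of 0.31 (SE 0.0921) had an adjusted p of 0.0895. Ndufa1, a membrane arm subunit of complex I, was at 77.3, 71.96 and 73.4 CPM and 69.6, 57.3, 57.2 and 67.9 CPM, lower without overlap by a difference of -0.24 (SE 0.0845, adjusted p = 0.167). These were the 1 higher and 1 lower member without overlap, against 7.96% and 8.05% of all genes. The interval lay within 1.5-fold for 78 of 82 members here too.

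Sdha and Uqcrc1 had the smallest p of complexes II and III in the deep layer, with differences of -0.08 (SE 0.0583, adjusted p = 0.543) and -0.09 (SE 0.0772, adjusted p = 0.650).

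The layers were then compared within each treatment. These comparisons share their libraries with those of cbx against saline, so the values stand side by side and are not independent. In saline libraries, 3 members were lower in the superficial layer and 0 higher, against 8.73% and 9.67% of all genes called lower and higher (18.4% in all). Those 3 were Ndufs5, an accessory subunit of complex I on the intermembrane side, Ndufa6, and Sdha, the flavoprotein of complex II that oxidises succinate. The median of the 82 was -0.07, against 0.04 over all genes, with 23 positive differences. It was -0.07, -0.05, -0.08, -0.09 and -0.02 in complexes I to V.

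Ndufs5 was at 55.3, 58.4 and 66.6 CPM in superficial and 68.2, 74.7 and 77.96 CPM in deep saline libraries, which differed by -0.29 on the log2 scale (SE 0.0874, edgeR adjusted p = 0.0233). Ndufa6 was at 59.0, 59.6 and 66.2 CPM and 72.5, 68.5 and 83.8 CPM, a difference of -0.28 (SE 0.0916, adjusted p = 0.0362). Sdha was at 208, 206 and 216 CPM and 237, 242 and 245 CPM, a difference of -0.20 (SE 0.0624, adjusted p = 0.0291). For all 3 the highest superficial library was below the lowest deep one. In all, 1 member was higher and 10 were lower without overlap, against 20.2% and 16.5% of all genes.

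These 3 calls rested on few libraries. Each ended without saline deep replicate 3, without saline superficial replicate 1 or 2 (adjusted p up to 0.128 for Ndufs5, 0.221 for Ndufa6 and 0.119 for Sdha), and with saline pool 1 and cbx pool 4 left out, the pools that differ from the others in Xist or Ddx3y. Sdha also lost its call without saline deep replicate 1 or 2, Ndufa6 without saline deep replicate 1 and Ndufs5 without saline deep replicate 2. With the replicate number of both layers as a block, 7 of 82 members were called lower, against 22.9% of all genes called in either direction, these 3 among them, with Ndufa3 of complex I, Cox5b of complex IV and Atp5g1 and Atp5k of complex V added. With members scaled to their own median, 1 was called, Ndufa6 (13% of all genes). Without the block Cox5b was at -0.24 (SE 0.0889, adjusted p = 0.0745), Uqcr11 of complex III at -0.19 (SE 0.0919, adjusted p = 0.171) and Cox7a2l, which helps complexes III and IV to associate, at -0.18 (SE 0.0979, adjusted p = 0.244). Cox6a2, at 0.543, 0.335 and 0.421 CPM in superficial and 0.127, 0.332 and 0.165 CPM in deep libraries, was the 1 member higher without overlap, at 1.04 (SE 0.528, adjusted p = 0.202).

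After cbx, 6 members were higher in the superficial layer and 2 lower, against 18.1% and 14.1% of all genes (32.2% in all). Of the 6, 4 belonged to complex IV: Cox7c, a small structural subunit, Ndufa4, Ndufa4l2 and Cox7a1. The others were Ndufa7, an accessory subunit of complex I, and Atp5g2, which encodes the c subunit of the ATP synthase rotor. The 2 lower members were Ndufs1, the largest iron-sulfur subunit of complex I, and Atp5s. The median of the 82 was 0.03 against 0.02 over all genes, with 50 positive differences, and the complex medians ran from 0.01 (complexes III and V) to 0.08 (complex IV).

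Atp5g2 was at 116, 92.5, 92.2 and 81.3 CPM in superficial and 79.6, 76.6, 77.9 and 82.2 CPM in deep cbx libraries, where the lowest superficial library was below the highest deep one, with a difference of 0.27 (SE 0.0850, edgeR adjusted p = 0.0193). Ndufs1 was at 87.9, 93.5, 93.9 and 89.4 CPM and 106, 98.2, 101 and 106 CPM, lower without overlap by a difference of -0.17 (SE 0.0538, adjusted p = 0.0175). Atp5s was at 13.5, 14.1, 12.3 and 12.7 CPM and 14.5, 16.3, 14.8 and 16.9 CPM, also lower without overlap, at -0.25 (SE 0.0845, adjusted p = 0.0276). It lay lower in the superficial layer in saline libraries too, at -0.19 (SE 0.0991, adjusted p = 0.205).

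Ndufa7 was at 86.2, 69.6, 70.6 and 66.1 CPM in superficial and 64.2, 60.2, 57.5 and 64.6 CPM in deep cbx libraries, higher without overlap by 0.25 (SE 0.0847, adjusted p = 0.0315). Cox7c was at 199.8, 170.5, 153 and 149 CPM and 146, 136, 141 and 151 CPM, with overlap, at 0.23 (SE 0.0769, adjusted p = 0.0293). Ndufa4 was at 247, 209.8, 210.3 and 189.7 CPM and 203, 169.8, 173 and 188 CPM, with overlap, at 0.22 (SE 0.0777, adjusted p = 0.0347). Atp5g2, Ndufa7, Cox7c and Ndufa4 had their highest superficial value in cbx replicate 1, the library in which nearly all members stood high. None of them was called without that library.

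The isoform genes lay at low counts. Ndufa4l2 was at 4.15, 4.67, 3.602 and 4.86 CPM in superficial and 3.56, 2.43, 3.38 and 3.01 CPM in deep cbx libraries, without overlap, a difference of 0.48 (SE 0.162, adjusted p = 0.0295). Cox7a1 was at 1.43, 1.05, 1.94 and 2.30 CPM and 1.01, 1.09, 0.816 and 1.15 CPM, with overlap, a difference of 0.73 (SE 0.265, adjusted p = 0.0411). Cox7a1 and Ndufa4l2 are known from muscle and vessel wall cells, and Cox4i2, also a gene of vessel wall cells, was at 0.68 (SE 0.304, adjusted p = 0.0956) in the same comparison. Among all genes 18.1% were higher and 14.1% lower in superficial cbx libraries. Of 10 pericyte markers, 4 were higher and 2 lower, and of 9 muscle markers 4 were higher and 1 lower. Their part in these differences was not tested.

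In all, 2 members were higher and 2 lower without overlap after cbx, against 16.7% and 13% of all genes. The split of calls moved with the processing: 6 higher and 2 lower became 2 and 4 with median-of-ratios scaling, 3 and 2 with TMM factors computed without members, ribosomal and mitochondrial genes, 3 and 4 with DESeq2 or a filter of 1 CPM in 3 libraries, and 5 and 4 with the trend in length and GC content removed. With the replicate block 13 were higher and 4 lower, 17 of 82 against 37.4% of all genes, and 7 of the 8 calls were kept while Cox7a1 lost its call. With members scaled to their own median 6 were called, against 24.2% of all genes. Without cbx superficial replicate 1 the split was 2 and 4, and without cbx deep replicate 2 it was 0 and 4. Of 20 alternatives, Atp5g2 passed in 18, Ndufs1 in 16, Ndufa7 and Atp5s in 13, Cox7c in 11, Ndufa4 and Ndufa4l2 in 10 and Cox7a1 in 6. Sdha and Ndufs5, called lower after saline, were not among the 8 but passed in some alternatives. Sdha was lower in all 20, by -0.20 to -0.11, and passed in 7. Ndufs5 passed as lower with median-of-ratios scaling, DESeq2, the filter of 1 CPM, the replicate block and the trend removed, among others. Ndufa6 passed in none.

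Whether cbx acted differently in the layers was tested as an interaction. With edgeR 0 of 82 members passed, as did 0% of all genes. DESeq2 and limma-voom called 0 members, against 0.295% and 0% of the genes they tested. At an unadjusted p under 0.05, 3 members were higher and 0 lower. The 3 were Ndufa6, at 0.30 (SE 0.121, edgeR adjusted p = 0.530), Cox6c, at 0.23 (SE 0.107, adjusted p = 0.591), and Cox7a1, at 0.88 (SE 0.409, adjusted p = 0.587). The median interaction was 0.11 against 0.00 over all genes, with 70 of 82 positive, and it fell to 0.03 without cbx superficial replicate 1.

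**Figure D4:**
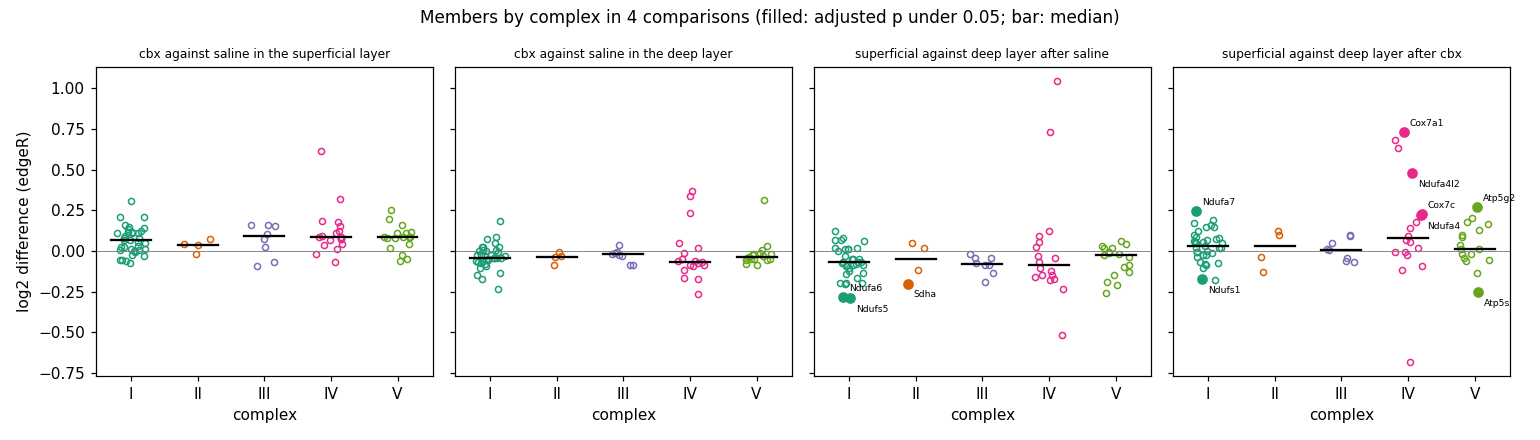
Log2 difference of each tested member from edgeR, by complex, in the 4 comparisons; filled points passed an adjusted p under 0.05 and bars are medians. None is filled for cbx against saline, 3 below 0 for the layers after saline, and 6 above and 2 below 0 for the layers after cbx.

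The c subunit of the ATP synthase gives a case where members of a complex parted. Atp5g1, Atp5g2 and Atp5g3 encode the same mature protein with different import sequences, so their RNAs can be read as shares of one product. Atp5g1 held 33.5% (SD 0.253, n = 3) of their counts in saline deep and 33.8% (SD 0.960, n = 4) in cbx deep libraries. In superficial libraries its share was 29.9% (SD 0.739, n = 3) after saline and 29.6% (SD 0.715, n = 4) after cbx. Each of the 7 deep libraries, between 32.5% and 34.6%, lay above each of the 7 superficial ones, between 28.99% and 30.6%. The CPM of 36.7% of all genes tested did not overlap between layers after saline, and that of 29.6% after cbx. Those figures are for single genes within 1 treatment. No such figure was computed for shares or for 7 against 7 libraries, so how unusual this split is was not tested.

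The 3 shares of a library sum to the whole, so a lower share of Atp5g1 by itself raises the others. The share of Atp5g2 was higher in the superficial layer. Its share was 18.5% (SD 0.308, n = 3) and 18.2% (SD 1.31, n = 4) in saline and cbx deep libraries, and 20.2% (SD 0.482, n = 3) and 21.0% (SD 0.807, n = 4) in superficial ones. Here too the 7 deep libraries (16.4% to 19.4%) lay below the 7 superficial ones (19.7% to 21.5%). Atp5g3 held the largest share, 48.0% in both deep groups (SD 0.547, n = 3, and SD 0.898, n = 4) and 49.9% (SD 0.552, n = 3) and 49.4% (SD 1.11, n = 4) in the superficial saline and cbx groups.

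These shares were looked at after the values were seen, and 12 tests were made of them. As the 3 shares of a library depend on one another, so do the tests. For Atp5g1 and Atp5g2 between layers after cbx the two-sided exact permutation test gave p = 0.0286, the smallest that 4 against 4 libraries allow, with adjusted p = 0.171. That test exchanges all 8 libraries, while the layers were taken as paired. Exchanged within the 4 pairs alone, the exact permutation test gave p = 0.125 for both genes, the smallest it allows, and with 3 pairs after saline it cannot go below 0.25. After saline, the exact permutation test of 3 against 3 libraries gave p = 0.1 for each of the 3 genes, also the smallest possible, with adjusted p = 0.2. Between treatments the shares differed by at most 0.790 percentage points (Atp5g2, superficial layer, exact permutation p = 0.171, adjusted p = 0.294). With members scaled to their own median, the edgeR test gave Atp5g1 a difference of -0.18 (SE 0.0587, adjusted p = 0.0409) and Atp5g2 one of 0.22 (SE 0.0642, adjusted p = 0.0183) between layers after cbx. After saline Atp5g1 was at -0.20 (SE 0.0678, adjusted p = 0.0723) and Atp5g2 at 0.10 (SE 0.0741, adjusted p = 0.47). On the CPM scale Atp5g1 was at 118, 122 and 141 in saline superficial and 144, 149 and 163 in saline deep libraries.

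**Figure D5:**
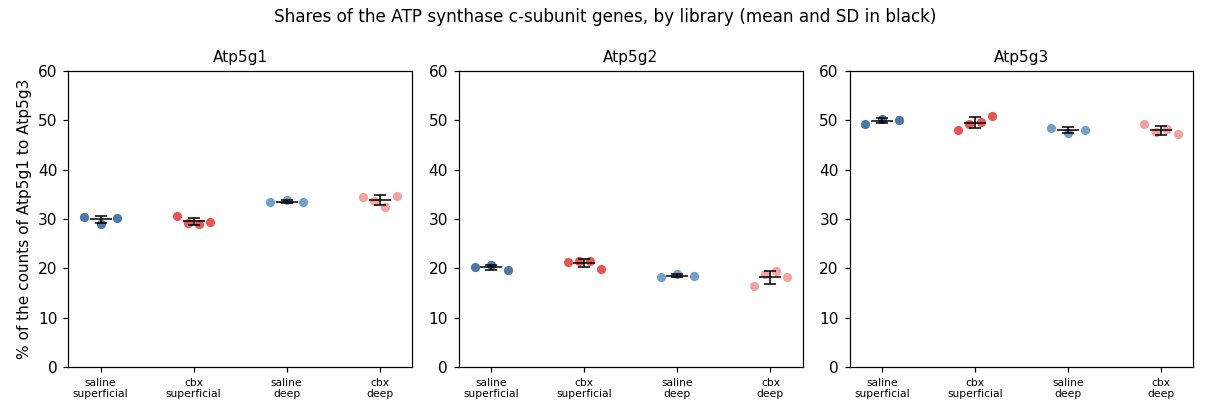
Share of Atp5g1, Atp5g2 and Atp5g3 in their summed counts, in percent, for each library (points), with group mean and SD in black. The 7 deep libraries lie above the 7 superficial ones for Atp5g1 and below them for Atp5g2.

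The shares of Atp5g1 and Atp5g2 lay apart between the layers, although no test of the c subunit shares passed after adjustment. The promoters of the c subunit genes are shown because of that split and because these genes encode one protein. Each is 300 bases long, 250 before and 50 after the transcript start, read 5′ to 3′ on the gene's strand, from RefSeq on GRCm38.p6. Atp5g1 lies at chr11:96075582-96075881 on the minus strand, Atp5g2 at chr15:102670998-102671297 on the minus strand and Atp5g3 at chr2:73911277-73911576 on the minus strand. Capitals mark matches on either strand to the NRF1 core (GCGCA, any base, GCGC), the ERR motif TCAAGGTCA and CCAAT, and the run of 8 capitals in Atp5g1 is a pair of overlapping CCAAT matches on opposite strands.
Atp5g1: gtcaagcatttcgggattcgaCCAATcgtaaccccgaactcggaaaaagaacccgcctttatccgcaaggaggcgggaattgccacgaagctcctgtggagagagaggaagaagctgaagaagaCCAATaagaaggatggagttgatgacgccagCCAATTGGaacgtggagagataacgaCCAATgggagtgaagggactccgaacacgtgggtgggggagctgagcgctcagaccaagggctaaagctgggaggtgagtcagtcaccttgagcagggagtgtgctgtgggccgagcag
Atp5g2: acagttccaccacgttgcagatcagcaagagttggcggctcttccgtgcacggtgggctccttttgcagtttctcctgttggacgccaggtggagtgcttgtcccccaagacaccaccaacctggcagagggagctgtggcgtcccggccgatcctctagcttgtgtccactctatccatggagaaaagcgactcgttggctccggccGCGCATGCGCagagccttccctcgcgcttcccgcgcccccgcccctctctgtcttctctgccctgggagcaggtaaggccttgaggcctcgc
Atp5g3: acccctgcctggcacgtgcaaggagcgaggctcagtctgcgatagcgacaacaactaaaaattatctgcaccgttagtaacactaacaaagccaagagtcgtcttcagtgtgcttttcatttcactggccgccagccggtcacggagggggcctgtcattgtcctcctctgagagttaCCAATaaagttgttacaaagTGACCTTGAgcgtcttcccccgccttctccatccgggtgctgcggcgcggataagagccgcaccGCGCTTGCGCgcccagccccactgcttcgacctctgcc
Atp5g1 had 5 CCAAT matches, 0 to the NRF1 core and 0 to the ERR motif. Atp5g2 had 1 NRF1 match, and Atp5g3 had 1 match to each of the 3 motifs.

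Over the members, 71 promoters of 66 genes were at hand, of 82 tested. NRF1, a regulator known for respiratory chain genes, had its core in 25.4% of member promoters and in 4.603% of all 32851 promoters. The ETS motif CCGGAAG, bound by GABP, was in 22.5% against 8.86%, the YY1 motif AAGATGGCG in 9.86% against 1.40%, and the ERR motif TCAAGGTCA in 2.82% against 0.423%. CCAAT was in 42.3% against 37.4% and TATAAA in 9.86% against 13.6%. All were searched on both strands, and none of these sequences contains another. Counted by gene and against the 12033 protein-coding genes tested that had a promoter, the NRF1 core was in 25.8% of members and 9.99% of genes. On that background the ETS motif was in 24.2% against 17.4%, YY1 in 10.6% against 3.01% and ERR in 3.03% against 0.316%. CCAAT was in 43.9% against 42.2% and TATAAA in 9.09% against 9.32%. The contrasts of the NRF1 core, ETS, YY1, CCAAT and TATAAA were smaller than over all promoters. That of ERR, matched in 2 member genes, was not. By complex the NRF1 core was in 7 of 31 genes of complex I, 2 of 3 of complex II, 1 of 5 of complex III, 1 of 13 of complex IV and 6 of 14 of complex V. Median GC content was 57.3% in member promoters and 52.7% in all promoters. A match is a run of letters and was not tested for binding.

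Some subunits encoded in mitochondria were lower in the superficial layer. Of 13 respiratory chain genes of the mitochondrial genome, 6 were lower in the superficial layer after saline and 6 after cbx, against 8.73% and 14.1% of all genes. Of the 13, 0 were higher, and their medians were -0.48 and -0.23. They summed to 28906 CPM (SD 2377, n = 3) in saline superficial and 39973 CPM (SD 1953, n = 3) in saline deep libraries, without overlap, and to 30232 CPM (SD 2644, n = 4) and 37120 CPM (SD 3753, n = 4) in cbx libraries, with overlap. mt-Co1, the catalytic subunit of complex IV, differed by -0.46 (SE 0.0882, edgeR adjusted p = 0.000682) after saline and -0.33 (SE 0.0763, adjusted p = 0.00242) after cbx. mt-Nd5 of complex I differed by -0.43 (SE 0.0889) and -0.31 (SE 0.0769), mt-Nd1 by -0.48 (SE 0.103) and -0.30 (SE 0.0890), and mt-Nd2 by -0.53 (SE 0.11) and -0.30 (SE 0.0950).

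The layer difference after cbx rested on more of the processing: 1 of the 13 mitochondrial genes was called with the trend in length and GC content removed, where their median turned to 0.07, and 2 without cbx deep replicate 4. For cbx against saline, edgeR called 0 of the 13 in either layer, with 0 at an unadjusted p under 0.05, and DESeq2 and limma-voom called 0. Without the low-count filter, 3 were called higher in the superficial layer. Whether both gene groups differed from each other was not tested.

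Assembly factors are proteins that build the complexes but are no part of them. After cbx, 4 of 49 were higher and 0 lower in the superficial layer, against 2.68% and 1.65% of all genes. Bcs1l, which inserts the Rieske protein into complex III, differed by 0.77 (SE 0.128, edgeR adjusted p = 0.00375) and lost its call in 1 of 19 alternatives, with saline pool 1 and cbx pool 4 left out (adjusted p = 0.0511). Taco1, a translational activator of mt-Co1, differed by 0.47 (SE 0.116), Cmc2 by 0.53 (SE 0.140) and Coa6, a copper factor of complex IV, by 0.51 (SE 0.136). In the deep layer Coa6 was the 1 of 49 called, against 1.83% of all genes, at 0.57 (SE 0.136, adjusted p = 0.0375). That call passed in 9 of 19 alternatives and ended with each of the 7 libraries left out in turn, with adjusted p from 0.0601 to 0.204. Taco1, Cmc2 and Coa6 passed in 10, 9 and 8 of 19 alternatives in the superficial layer.

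Of 25 regulators of mitochondrial biogenesis, 1 was higher and 1 lower after cbx in the superficial layer, against 2.68% and 1.65% of all genes. Tfb1m, which methylates the mitochondrial small ribosomal RNA, differed by 0.80 (SE 0.156, edgeR adjusted p = 0.00874), and in the deep layer by 0.64 (SE 0.157, adjusted p = 0.0415). Ppargc1a, the coactivator PGC-1 alpha, which drives respiratory chain genes, differed by -0.30 (SE 0.0711, adjusted p = 0.0229) in the superficial layer. Between layers 3 of the 25 were higher and 1 lower in the superficial layer after saline, against 9.67% and 8.73% of all genes. After cbx 5 were higher and 3 lower, against 18.1% and 14.1%. Egln3 and Ppard were called higher in the superficial layer after both treatments. Ppargc1a was lower there after cbx, at -0.35 (SE 0.0661). Esrrb, an orphan nuclear receptor gene, was lower by -3.31 (SE 0.200) after saline and -3.32 (SE 0.171) after cbx. The call of Tfb1m passed in 15 of 19 alternatives in the superficial layer and ended without saline superficial replicate 2 (adjusted p = 0.0525). In the deep layer it passed in 8 of 19 and ended with each of the 7 libraries left out (adjusted p from 0.0560 to 0.153). The call of Ppargc1a for cbx passed in 9 of 19 alternatives. Those of Egln3 and Esrrb between layers passed in all 18 after saline and all 20 after cbx, and that of Ppard in 9 and 20.

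Neighbouring pathways of energy metabolism held single changes after cbx. Of 21 genes of the tricarboxylic acid cycle and its pyruvate gate, 1 was higher and 1 lower after cbx in the superficial layer. The shares of all genes there were 2.68% and 1.65%. In the deep layer 0 were higher and 2 lower, against 1.06% and 0.777%. Pdk4, a kinase that closes that gate, differed by -0.58 (SE 0.127) in the superficial and by -1.15 (SE 0.134) in the deep layer. Suclg2, a subunit of succinyl-CoA ligase, differed by -0.31 (SE 0.0746) in the deep layer. Idh2, a mitochondrial isocitrate dehydrogenase, differed by 0.36 (SE 0.0712) in the superficial layer. The Pdk4 calls passed in 15 of 19 alternatives in the superficial and 19 of 19 in the deep layer, that of Idh2 in 14 and that of Suclg2 in 9 of 19. The superficial Pdk4 call ended without saline superficial replicate 1 or 3 (adjusted p up to 0.0671), Idh2 without saline superficial replicate 3 (adjusted p = 0.0604), and Suclg2 in 6 of 7 omissions of a library (adjusted p up to 0.143). Between layers Pdk4 was higher in the superficial layer by 0.89 (SE 0.139) after saline and 1.46 (SE 0.126) after cbx. Of 18 glycolytic genes 1 was lower after cbx in each layer, against 1.65% of all genes in the superficial and 0.777% in the deep layer. It was the phosphoglycerate mutase gene Pgam2, with -0.71 (SE 0.167) for superficial and -0.79 (SE 0.170) for deep libraries. These calls passed in 13 and 12 of 19 alternatives and ended in 3 and 5 of 7 omissions of a library (adjusted p up to 0.121 and 0.0991). Of the same 18, 6 were lower and 1 higher in the superficial layer after each treatment. The shares of all genes were 8.73% and 9.67% after saline and 14.1% and 18.1% after cbx. Gpi1 was at -0.32 (SE 0.0669) and -0.43 (SE 0.0580) and Eno2, the neuronal enolase, at -0.34 (SE 0.0816) and -0.47 (SE 0.0707). Of Cycs, Cyc1 and Ndufab1, chain proteins with other symbols, Cycs between layers after cbx came nearest to a call, at -0.17 (SE 0.0747, adjusted p = 0.0896).

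Cell makeup differed between the layers and in part between the treatments. Meningeal fibroblast markers summed to 707 to 1822 CPM in superficial and 52.3 to 97.2 CPM in deep libraries, and dividing-cell markers to 124 to 169 and 72.4 to 83.4 CPM. Neuronal markers summed to 4281 to 5128 CPM in superficial and 4790 to 5774 CPM in deep libraries. Astrocyte markers summed to 2834 to 3642 CPM in superficial and 2018 to 2821 CPM in deep libraries. Of the 10, 3 were called higher and 2 lower in the superficial layer after saline, and 5 and 1 after cbx. Endothelial markers summed to 465 to 564 and 227 to 313 CPM, and oligodendrocyte lineage markers to 763 to 1062 and 1131 to 1450 CPM. Of 15 microglial and macrophage markers, 3 were called higher and 11 lower in the superficial layer after saline, and 4 and 6 after cbx. The shares of all genes called higher and lower were 9.67% and 8.73% after saline and 18.1% and 14.1% after cbx. After cbx, microglial and macrophage markers in the superficial layer were at 439 to 497 CPM against 326 to 373 CPM after saline. Of these markers 8 of 15 were called higher, against 2.68% of all genes. Meningeal fibroblast markers there averaged 44.5% more after cbx, with overlap and 5 of 12 called higher, and red blood cell markers 69.3% more, without overlap and with 1 of 7 called higher. In the deep layer meningeal fibroblast markers averaged 61.5 CPM after cbx and 87.9 CPM after saline, without overlap and with 0 of 12 called by edgeR and 4 at an unadjusted p under 0.05. The part of cell makeup in the members' differences was not tested.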

How the data were processed

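RNA was sequenced as 150-base pairs after poly-A selection, per the labels' protocols. The authors deposited whole-number counts, in 1 table for each library, over 55359 Ensembl gene IDs. The submitters' processing notes list STAR 2.7.9d, Subread 2.0.1, featureCounts, SAMtools 1.14 and FastQC 0.11.9, and name 2 builds, mm10 and GRCm39. Which build, annotation and strand setting made the counts is not given in the sources used here. Overlapping genes and near-identical copies may share reads. The 12 matching IDs that are not protein-coding, mostly pseudogenes, held 0.473% of the members' counts. Symbols matched 52083 IDs with 98.7% of counts. Lengths, GC content and gene types were taken from GENCODE M21, promoters from RefSeq GRCm38.p6.

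The members, lists, comparisons and alternatives were chosen with earlier results of these data known. Named were every member called (at most 12 in a comparison), otherwise the smallest p of a complex, the highest and lowest level per kilobase, the isoform pairs, the c subunit genes and up to 4 genes of each other list. CPM values were scaled with TMM factors from edgeR 4.0.16 in R 4.3.3. Levels per kilobase used the shortest main transcript. Genes passing filterByExpr (20330) were fitted with edgeR's quasi-likelihood model, 4 group means over 14 libraries and 10 residual degrees of freedom. P-values were adjusted by Benjamini-Hochberg over these genes, with a threshold of 0.05. Deviations of libraries are on log2(CPM + 2). The test was tried on simulated data. Alternatives were other scalings and filters, DESeq2 1.42.0, voom in limma 3.58.1, fits of the compared groups alone, the omission of single libraries or of saline pool 1 and cbx pool 4, removal of length and GC trends (99.6% of tested genes had both) and a replicate block. Scaling the members to their own median and the shares of the c subunit genes, with their tests over all libraries and within pairs, were added after the data were seen.

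Among the 18 pairs of libraries within a group, the chi-square per gene was 7.16 to 47.5, so none was counted as a duplicate. The titles number the replicates, and whether a number stands for the same brains is not in the labels. Deviations of same-numbered libraries of both layers correlated at 0.182 to 0.394 in the 7 pairs over the 15168 genes averaging 1 CPM or more, and 14 of 14 libraries correlated best with their own number. Over all 20330 genes on log2(CPM + 2) the correlations were 0.0150 to 0.430, with 6 of 7 above 0.1. The numbers were therefore taken to pair the layers. The 6 same-numbered pairs across treatments correlated at -0.276 to -0.0167 and share only a number. For cbx against saline the block nevertheless joined libraries by number across treatments, so its values there are no check on pairing. As the layer comparisons and the interaction treat paired libraries as independent, values with the block stand beside them where it changed a call.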

Additional observations from a re-analysis of the deposited data

Results flagged for a closer look

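Of 82 sets of 4 cbx libraries examined, 7 held a library whose gap to its nearest neighbour exceeded Dixon's 95% limit. Chance gives about 1 in 20, or 4.10 sets. In 5 of the 7 the library was cbx superficial replicate 1, which stood high: Atp5g1 at 166 CPM (next highest 126), Atp5g3 at 261 CPM (next 214), Cox4i2 at 3.02 CPM (next 1.56), Cox7a2 at 128 CPM (next 92.5) and Cox8a at 408 CPM (next 305). Most members stood above their mean in that library, so these 5 are not separate observations.

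Sdha stood high in cbx superficial replicate 3, at 217 CPM against 205 in the next library. The share of Atp5g2 among the c subunit counts stood low in cbx superficial replicate 4, at 19.8%, against 21.3% in the next lowest.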

How the results depend on the processing

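No member passed for cbx against saline in either layer or for the interaction with median-of-ratios scaling, limma-voom, only the groups compared (not run for the interaction), the replicate block or the pools left out. For cbx against saline that block joined libraries by number across both treatments, which share only a number. Its results for cbx, 480 and 191 genes among them, are therefore no check of the calls. They are also within the tallies of 19 alternatives. In the superficial layer 1 member passed without the low-count filter, with DESeq2, with the length and GC trend removed and with the block and that trend removed, Ndufa6 each time, and 0 to 1 with a library left out. In the deep layer 1 passed with DESeq2 (Atp5s) and 0 to 0 with a library left out. Between layers after saline the 3 calls became 8 with only the groups compared, 7 with the replicate block, 11 with the block and the length and GC trend removed, 0 with the pools left out, 1 with members scaled to their own median, and 0 to 5 with a library left out. Between layers after cbx the 8 became 5 with TMM factors free of members, 4 without the low-count filter, 4 with only the groups compared, 17 with the replicate block, 15 with the block and the trend removed, and 4 to 11 with a library left out. The cause of these moves was not tested. With a library left out, the members' median ran from -0.00 to 0.13 and from -0.09 to 0.01 for cbx in the superficial and deep layers, from -0.13 to -0.02 and from -0.04 to 0.08 between layers after saline and cbx, and from 0.03 to 0.18 for the interaction. Of all genes, 880 were called for cbx in the superficial layer, but 1585 with DESeq2, 1459 without the low-count filter, 480 with the replicate block, 142 with only the groups compared, 91 with the pools left out, 31 with members scaled to their own median, and as few as 140.0 without saline superficial replicate 2. In the deep layer 373 were called, but 901 with DESeq2, 643 with the trend removed, 611 with only the groups compared, 566 without the filter, 191 with the replicate block, 14 with the pools left out, 4 with members scaled to their own median, and as few as 42 without saline deep replicate 3. For the interaction 0 became 256 without the filter, 60 with DESeq2, 61 with the replicate block and 76 with the block and the trend removed. Between layers after saline 3739 became 2133 with the pools left out. Over the named genes and alternatives, 2765 values kept their sign and stayed on their side of the threshold, and 0 called ones changed sign. A threshold was lost in 272 cases and newly passed in 34, and 116 values not called in either fit changed sign. Depth limits the isoform genes most, since Cox6a2 and Cox7b2 lie below 1 CPM.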
